A study of Drosophila melanogaster with 33 samples.

Results

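The genes crb, sdt, Patj, aPKC and par-6 encode the core of the apical polarity machinery of Drosophila epithelia. Each gene was read from the probe set annotated to it alone that had the highest mean over all arrays. These 5 genes stand among 11983 genes with such a probe set, and all 5 were among the 8265 genes tested, those above 4 on the log2 scale on 3 or more arrays.

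Crumbs, the crb product, is a transmembrane protein of the apical membrane whose cytoplasmic tail binds the scaffold Stardust, encoded by sdt, and Stardust in turn binds Patj. The kinase aPKC and its adaptor Par-6 form the other apical module and keep basolateral proteins such as Lethal giant larvae out of the apical domain. In the larval brain the optic lobe neuroepithelium is a polarised epithelium that carries this machinery, and neuroblasts use aPKC and Par-6 to divide asymmetrically. The tail of Crumbs also binds Expanded, an upstream member of the Hippo growth pathway.

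The arrays compared larval brains mutant for l(3)mbt, a chromatin gene whose loss lets the brain overgrow, and tumours cultured from them, with wild-type brains. Brains of the temperature-sensitive allele ts1 were raised at 29 °C (6 arrays) or 17 °C (3 arrays), brains of the allele E2 at 29 °C or 17 °C (3 arrays each), and ts1/E2 brains at 29 °C (3 arrays). The tumours carried the ts1 allele, were kept by serial transfer between adult flies and were taken at round 1, 5 or 10 (3 arrays each); the labels do not say whether host tissue was collected with them. The reference was w1118 (WT, 6 arrays), and its labels give no temperature. None is listed for the tumours either. The labels do not say whether arrays of a group hold separate animals or pools, so p-values here cover only the spread among the samples, which may be technical.

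The experiments ran at 2 sites, called IRB (24 arrays) and EMBL (9 arrays) in the labels. The ts1 brains at 17 °C were run at EMBL, ts1 brains at 29 °C and WT at both (3 arrays at each site), and all other groups at IRB. The WT means of the 2 sites were equal for every probe set, with a largest difference of 6.7e-09, while ts1 brains at 29 °C differed between sites by up to 7.18, so the sites had been centred on WT before deposition. Every difference below is therefore taken within a site. On 3 arrays the 5′ signal of the control transcript eIF4a lay far below its 3′ signal, with differences of -11.96 to -4.94 on the log2 scale, against -2.38 to -1.10 on the other 30 arrays. The most extreme of them, E2 brains at 29 °C replicate 1, correlated with its own group at a median of 0.741, against 0.847 to 0.984 on the 28 arrays that were not set apart in an earlier look at these data. The other arrays set apart had medians of 0.902 to 0.963, within the range of those 28, so this correlation alone does not set them apart. The transcript of l(3)mbt itself lay between 5.66 and 9.39 on all arrays, which tells nothing of the alleles, since the labels do not give their lesions. It was higher in tumours of round 5 (by 1.45, limma adjusted p = 0.0364) and round 10 (by 1.58, adjusted p = 0.0233) than in WT, and not called in the other comparisons with WT.

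Against WT, crb rose in the mutant brains at 29 °C from IRB and most in the tumours, while sdt and par-6 passed the test in tumours alone and Patj and aPKC passed it in no group. A gene was called at a limma p below 0.05 after Benjamini-Hochberg adjustment over the 8265 genes. The 9 comparisons with WT gave 9 calls in 45 tests of the 5 genes, all of them higher, 6 for crb, 1 for sdt and 2 for par-6. The comparisons of one site share the same 3 WT arrays, so their differences are not independent of each other.

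In ts1 brains at 29 °C, 0 of the 5 genes were called at EMBL and 1 at IRB, where 9.36% and 10.3% of all tested genes were called. At IRB 3.55% of all genes were called higher. In ts1 brains at 17 °C 0 were called (1.39% of all genes). In E2 brains 1 was called at 29 °C (10.9% of all genes, 4.53% higher) and 0 at 17 °C (5.15%), and in ts1/E2 brains 1 was called (7.22%, 3.55% higher). In tumours 2 were called at round 1 (34.5%, 15.2% higher), 1 at round 5 (33.5%, 16.2% higher) and 3 at round 10 (32.7%, 16% higher). The mean over both sites of ts1 brains at 29 °C gave 1 call (12.2%, 4.48% higher). The median difference of the 5 genes from WT was 0.50, 0.36 and 0.48 at rounds 1, 5 and 10, against -0.01, 0.09 and 0.09 over all tested genes. The plot of differences from WT shows the 45 values with their intervals.

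**Figure D1:**
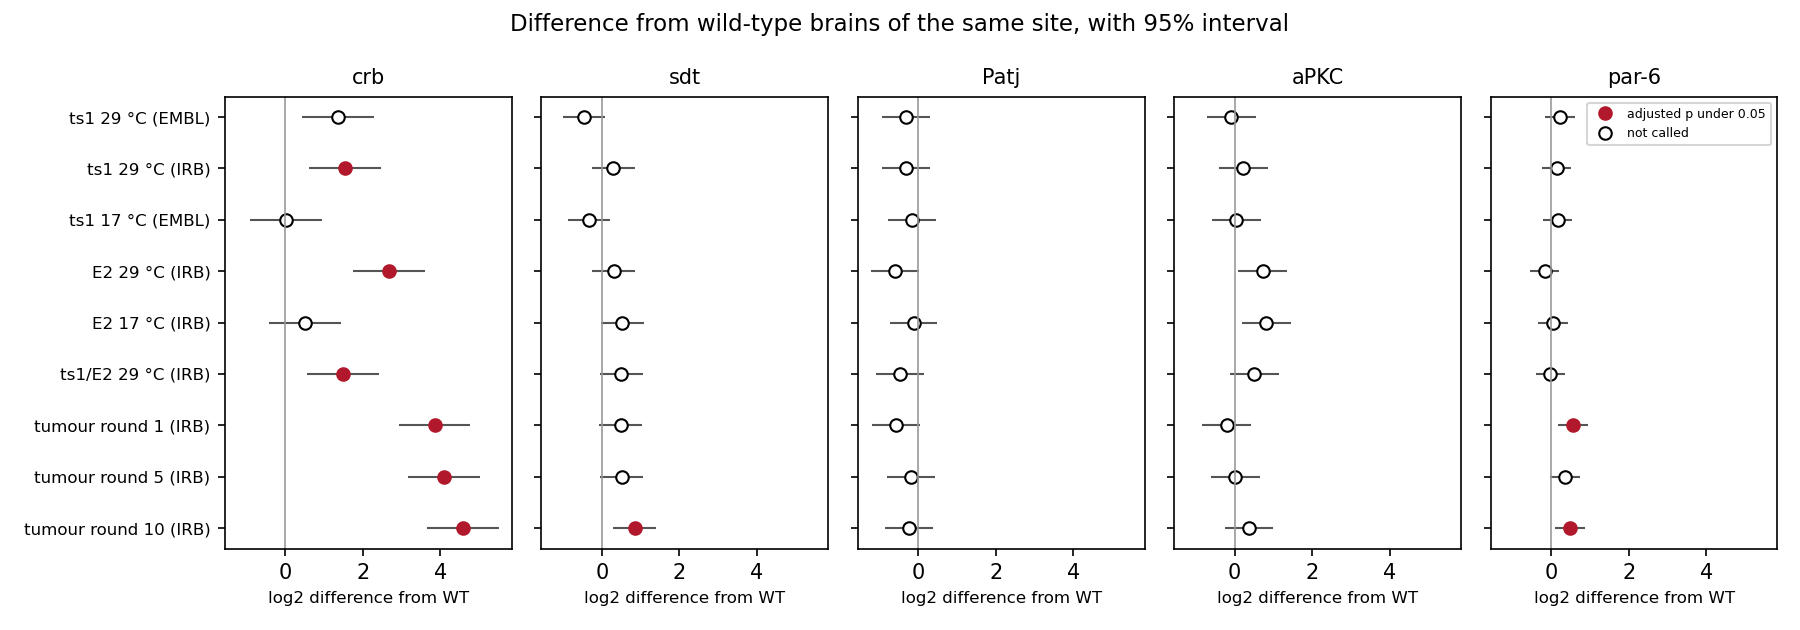
Difference of each gene from wild-type brains of the same site (log2, x axis) in the 9 mutant or tumour groups (rows), with the 95% interval of the limma fit. Filled points passed the adjusted p threshold: crb in 6 groups, sdt at round 10, and par-6 at rounds 1 and 10.

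The ranges of the mutant or tumour arrays and of the 3 WT arrays of the same site did not overlap for 2 of the 5 genes in ts1 brains at 29 °C at either site, where 35.7% (EMBL) and 39.4% (IRB) of all genes did not overlap. This held for 0 genes in ts1 brains at 17 °C (17.3% of all genes), 3 in E2 brains at 29 °C (34.2%), 2 in E2 brains at 17 °C (41.9%) and 4 in ts1/E2 brains (45%). In tumours it held for 4, 3 and 5 genes at rounds 1, 5 and 10, where 62.9%, 68% and 67.2% of all genes did not overlap. Against such shares none of these counts is read as a result about the 5 genes.

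The values of crb ran in steps, with WT and the 17 °C brains lowest, the 29 °C brains higher and the tumours highest. In round-1 tumours crb read 9.53, 10.58 and 10.63, in round-5 tumours 10.75, 10.52 and 10.20, and in round-10 tumours 10.72, 11.16 and 11.04, against 6.48, 6.71 and 6.01 in WT at IRB. All tumour arrays thus lay far above all WT arrays. The difference was 3.85 ± 0.45 (SE) at round 1, a 14.4-fold rise (limma adjusted p = 2.39e-07), 4.09 ± 0.45 at round 5, 17-fold (adjusted p = 6.71e-08), and 4.58 ± 0.45 at round 10, 23.8-fold (adjusted p = 1.07e-08). In bulk samples such as these, a larger share of cells that express a gene and more of its RNA per cell cannot be told apart, nor can their opposites.

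In E2 brains at 29 °C crb read 10.13, 8.49 and 8.61, again above every WT array. The rise over WT was 2.68 ± 0.45, 6.4-fold (limma adjusted p = 0.000242). The highest of the 3 values came from replicate 1, the array with the weakest 5′ signal, and without the 5 arrays set apart the rise was 2.15 (adjusted p = 0.00224). In ts1/E2 brains crb read 7.48, 8.22 and 7.94, which did not overlap WT, and rose by 1.48 ± 0.45 (adjusted p = 0.0435). That call was lost in 8 of the 15 alternative fits, with adjusted p up to 0.208 when ts1/E2 replicate 2 was left out and 0.0518 with a replicate block.

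In ts1 brains at 29 °C crb read 7.26, 9.24 and 7.35 at IRB and 7.68, 7.60 and 8.01 at EMBL, against 6.48, 6.71 and 6.01 in WT at IRB and 6.42, 6.62 and 6.16 in WT at EMBL. No ts1 array at 29 °C overlapped WT at its site, and 1 IRB array stood well above the other 5. At IRB the rise was 1.55 ± 0.45 (limma adjusted p = 0.0274), and at EMBL the difference was 1.36 ± 0.45, which was not called (adjusted p = 0.0568). The mean over both sites was 1.46 ± 0.32 (adjusted p = 0.00271), and the 2 site differences did not differ from each other beyond their error (0.19 ± 0.64, adjusted p = 0.895, where 3.9% of all genes were called). The IRB call was lost without the high array, replicate 5 (0.91, adjusted p = 0.153), and without WT replicate 1 (adjusted p = 0.0803) or 3 (adjusted p = 0.103). It was also lost when the IRB arrays were fitted alone (adjusted p = 0.0647). The EMBL difference was called when the EMBL arrays were fitted alone (adjusted p = 0.0127) and without the 5 arrays set apart (1.24, adjusted p = 0.0445).

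At 17 °C crb was not called in either allele. In ts1 brains it read 6.79, 6.52 and 5.95, against 6.42, 6.62 and 6.16 in WT at EMBL, a difference of 0.02 ± 0.45 with a 95% interval of -0.90 to 0.95. In E2 brains it read 7.15, 6.24 and 7.33, against 6.48, 6.71 and 6.01 in WT at IRB, a difference of 0.51 ± 0.45 (limma adjusted p = 0.618). Both groups overlapped WT, in E2 brains through replicate 2 alone, one of the arrays set apart. Without those arrays the E2 difference was 0.84 (adjusted p = 0.215). All 21 arrays of 29 °C brains and tumours lay above the highest of the 6 WT arrays, as did 3 of the 6 arrays of 17 °C brains.

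The comparison of temperatures within an allele asks whether crb depended on how the larvae were raised. Since WT carries no temperature label, an effect of temperature alone and one of the allele cannot be told apart. In E2 brains crb was higher at 29 °C than at 17 °C by 2.17 ± 0.45, 4.5-fold (limma adjusted p = 0.00278), and it was the 1 of the 5 genes called (7.57% of all genes, 3.58% higher). It was also the 1 gene without overlap (21.1% of all genes). Without the 5 arrays set apart, which remove 1 array on each side, that difference was 1.31 and was not called (adjusted p = 0.104). In ts1 brains crb differed by 1.34 ± 0.45 between 29 °C and 17 °C (adjusted p = 0.126), and 0 of the 5 genes were called (2.59% of all genes). It was the 1 gene whose groups did not overlap (21% of all genes). It was called when the EMBL arrays were fitted alone (adjusted p = 0.023). The temperature difference of ts1 minus that of E2 was -0.83 ± 0.64 (adjusted p = 0.772, where 0.375% of all genes were called), so the 2 alleles were not shown to differ, and each allele's temperature comparison came from a different site. Without the 5 arrays set apart that value was -0.04.

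Among the 29 °C genotypes 0 of 15 tests of the 5 genes were called. The shares of all genes called were 7.61% for E2 against ts1 brains, 0.109% for ts1/E2 against E2 brains and 7.89% for ts1/E2 against ts1 brains, all at IRB. For crb the differences were 1.13 ± 0.45 (limma adjusted p = 0.124), -1.19 ± 0.45 (adjusted p = 0.433) and -0.07 ± 0.45 (adjusted p = 0.976) in the same order. Without ts1 replicate 5, E2 brains exceeded ts1 brains by 1.77 (adjusted p = 0.0079), and without the 5 arrays set apart the difference was 0.30 (adjusted p = 0.735).

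Round-1 tumours exceeded ts1 brains at 29 °C from the same site in crb by 2.30 ± 0.45, 4.91-fold (limma adjusted p = 0.000335), and crb was the 1 of the 5 genes called (34.1% of all genes, 18.9% higher). It and par-6 were the 2 genes without overlap (45.9% of all genes). Between tumour rounds 0 of the 5 genes were called, where 4.84% of all genes were called for round 5 against round 1, 0.302% for round 10 against round 5 and 6.56% for round 10 against round 1. For crb round 10 stood 0.73 ± 0.45 above round 1 (adjusted p = 0.48), although the arrays did not overlap, as for 3 of the 5 genes and 30.6% of all genes.

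From high to low, the group means of crb were those of tumour rounds 10, 5 and 1 (10.98, 10.49 and 10.25), E2 brains at 29 °C (9.08), ts1 brains at 29 °C from IRB (7.95), ts1/E2 brains (7.88), ts1 brains at 29 °C from EMBL (7.76), E2 brains at 17 °C (6.91), ts1 brains at 17 °C (6.42) and WT (6.40). Neighbours in this order overlapped at every step but that between ts1 brains at 29 °C from EMBL and E2 brains at 17 °C, as the plot of single arrays shows. The span of crb over the group means was 4.58, a span reached by 10.1% of the tested genes, whose median span was 1.77. The spans of sdt (1.31), aPKC (1.02), par-6 (0.73) and Patj (0.61) were all below that median. That of sdt holds for its probe set of the highest mean, and a second one, described below, exceeded 4 in tumours alone. Called higher than WT in all 6 IRB comparisons of 29 °C brains and tumours were 90 genes, 1.09% of those tested, and crb was the only one of the 5 among them. These 6 comparisons share the same 3 WT arrays. They leave out ts1 brains at 29 °C from EMBL, where crb was not called (limma adjusted p = 0.0568).

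**Figure D2:**
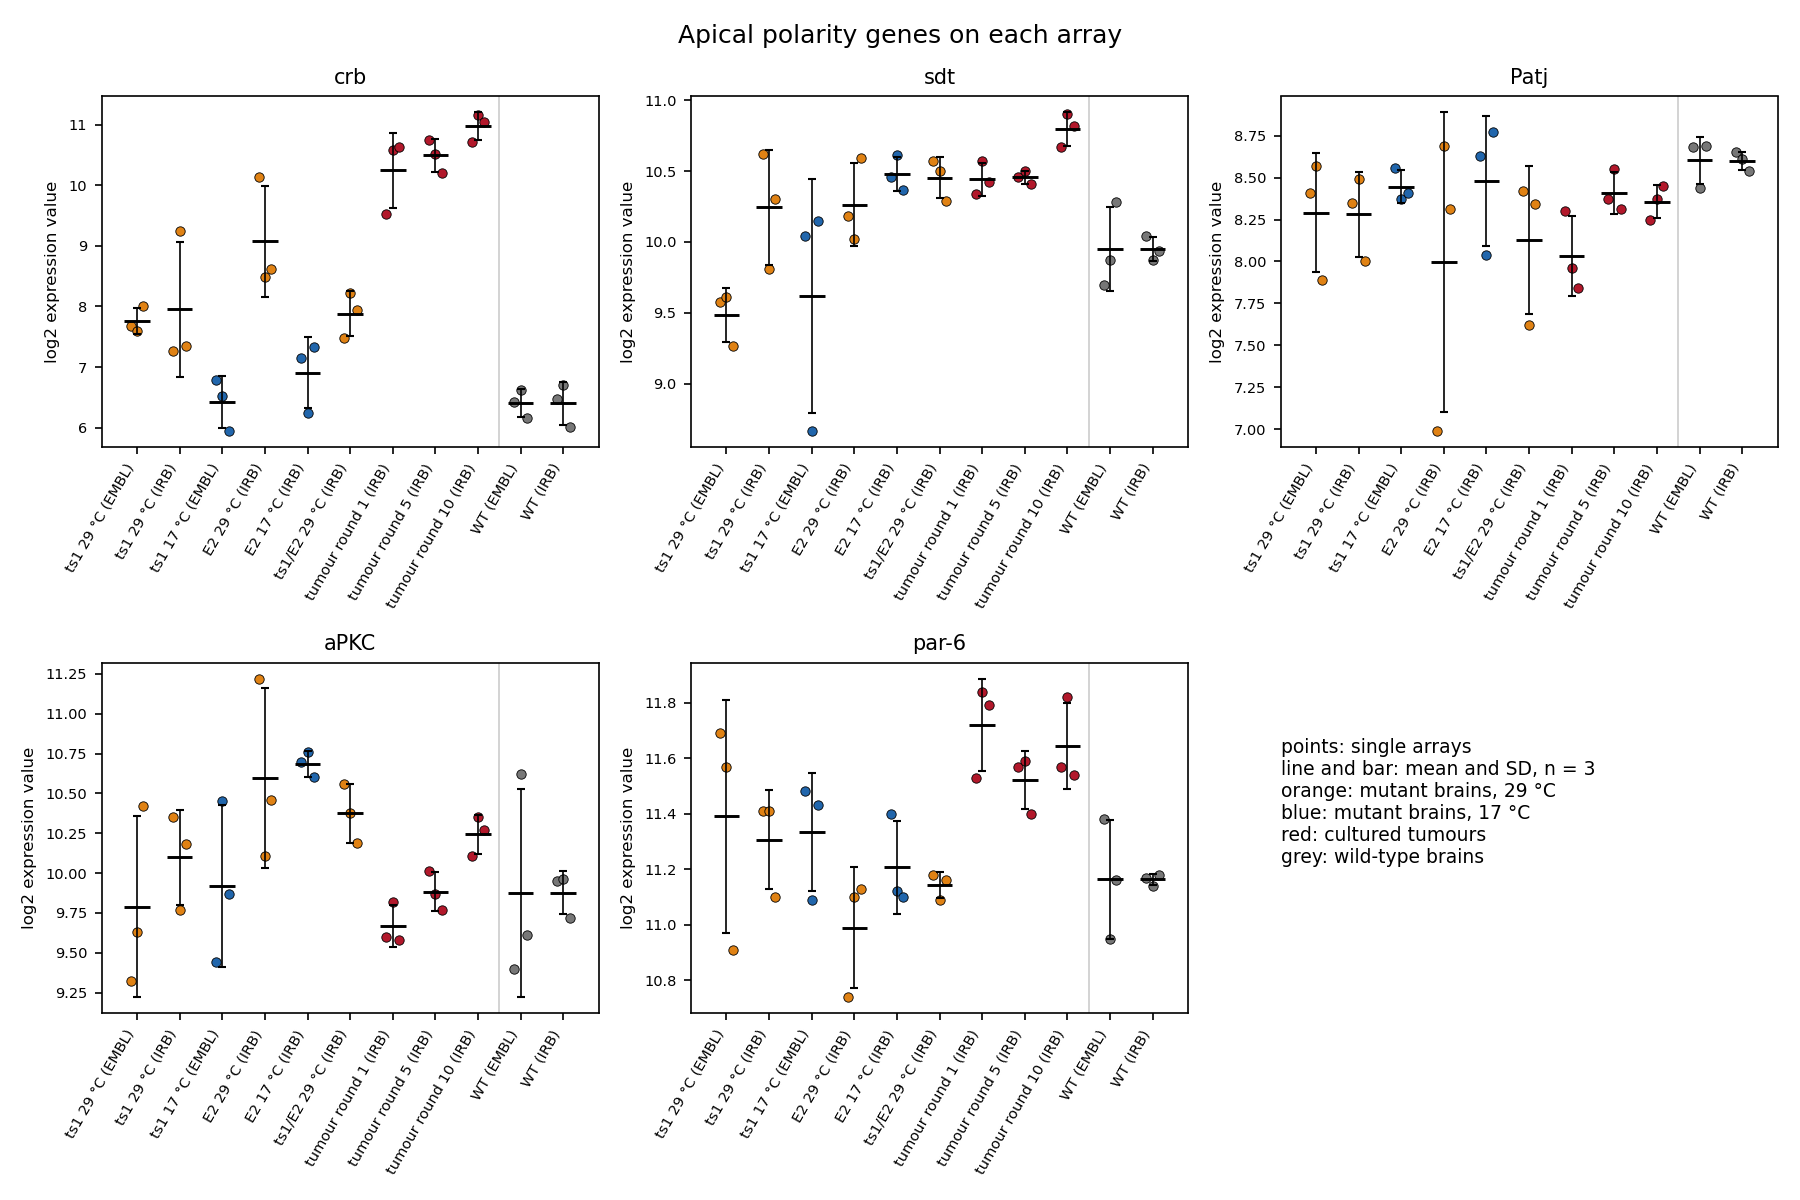
Log2 expression value (y axis, its own scale in each panel) of the 5 genes on each array, by group and site, with mean and SD of the 3 arrays. The 9 tumour arrays of crb lie between 9.53 and 11.16 and the 6 WT arrays between 6.01 and 6.71, while the other genes move over a much smaller range.

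The scaffold gene sdt was high in all groups on its main probe set and moved little. It read 10.67, 10.90 and 10.82 in round-10 tumours, against 10.04, 9.87 and 9.94 in WT at IRB. The groups did not overlap, and the rise of 0.85 ± 0.27 was called (limma adjusted p = 0.016). In round-1 tumours (10.34, 10.57 and 10.42) and round-5 tumours (10.46, 10.50 and 10.41) sdt also lay above every IRB array of WT, but the differences of 0.50 ± 0.27 (adjusted p = 0.164) and 0.51 ± 0.27 (adjusted p = 0.155) were not called. Both were called without the 5 arrays set apart (adjusted p = 0.0268 and 0.0239) and with the IRB arrays fitted alone (adjusted p = 0.0443 and 0.0405), with the same differences and a smaller pooled error. The round-10 call was lost with an additive site term (0.66, adjusted p = 0.0533). It was also lost without round-10 replicate 2 (0.80, adjusted p = 0.0567) and without WT replicate 2 (0.81, adjusted p = 0.0512).

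In brains the differences of sdt from WT ran both ways. At IRB ts1 brains at 29 °C read 10.62, 9.81 and 10.30, a difference of 0.29 ± 0.27, and at EMBL they read 9.58, 9.61 and 9.27, against 9.70, 9.87 and 10.28 in WT at EMBL, a difference of -0.46 ± 0.27. The IRB arrays overlapped WT, and the EMBL arrays lay below it. The site differences differed by 0.75 ± 0.38 (limma adjusted p = 0.247). In ts1 brains at 17 °C sdt read 10.04, 8.67 and 10.15, where the low value came from replicate 2, which had a weak 5′ signal, and the difference from WT was -0.33 ± 0.27. E2 brains read 10.18, 10.02 and 10.59 at 29 °C and 10.46, 10.61 and 10.37 at 17 °C, and ts1/E2 brains 10.57, 10.50 and 10.29, with differences of 0.31, 0.53 and 0.50 from WT at IRB. None of these was called.

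A second probe set of sdt showed another pattern. The array carried 6 probe sets annotated to sdt alone, of which 4 stayed at or below 4 on all 33 arrays, near background. The one with the second highest mean read 5.12, 6.72 and 6.33 in round-1 tumours, 8.08, 7.78 and 5.61 in round-5 tumours and 7.05, 7.92 and 6.45 in round-10 tumours, against 3.56, 3.16 and 2.93 in WT at IRB. It passed 4 on the 9 tumour arrays alone: in mutant brains it lay between 2.33 and 3.86. Since it passed the low-value filter through the tumours alone, no test between tumours and brains is given for it, and with WT near background no size. The gene makes several transcripts, and the annotation used here does not say which of them each probe set reads.

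**Figure D3:**
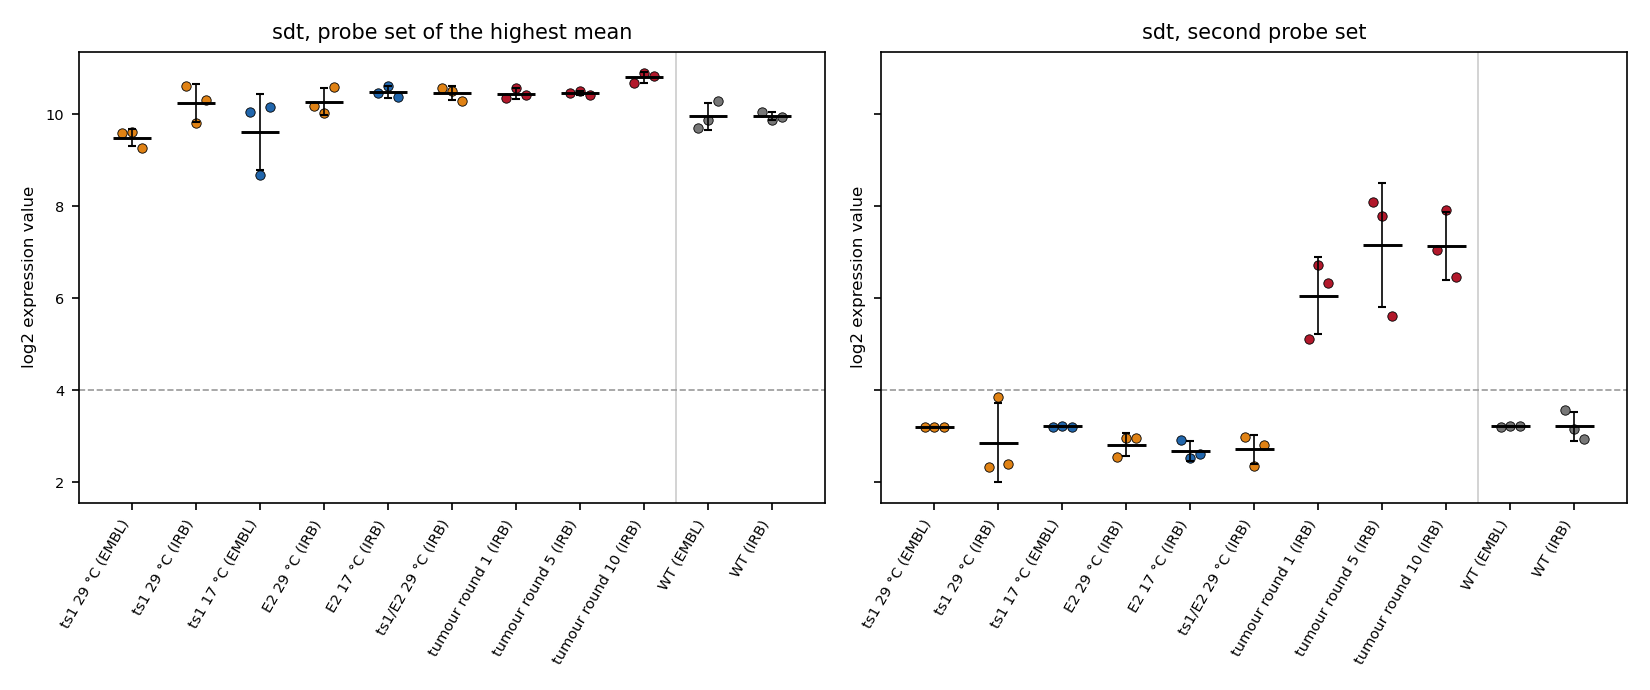
Log2 values of the 2 sdt probe sets that passed the low-value filter, on each array by group and site, with mean and SD of 3 arrays; the dashed line marks the minimum of 4. The main probe set is high in all groups, and the second lies between 5.12 and 8.08 in tumours and below 4 in all brains.

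Patj, the multi-PDZ scaffold bound by Stardust, was below WT on average in all 9 groups and was called in none. Without the arrays set apart the mean of E2 brains at 17 °C lay above WT instead, by 0.10. The differences ran from -0.61 to -0.12, with 95% intervals that together spanned -1.22 to 0.49. Its values were 8.30, 7.96 and 7.84 in round-1 tumours, 8.37, 8.55 and 8.31 in round-5 tumours and 8.25, 8.37 and 8.45 in round-10 tumours, against 8.65, 8.61 and 8.54 in WT at IRB. Rounds 1 and 10 did not overlap WT and round 5 did. The round-1 difference of -0.57 ± 0.30 (limma adjusted p = 0.155) was called without the 5 arrays set apart (adjusted p = 0.0101), with the same difference and a smaller pooled error, and after quantile normalization (adjusted p = 0.0223). In E2 brains at 29 °C the values were 6.99, 8.69 and 8.31, and the low one was replicate 1, with the weakest 5′ signal. The difference there was -0.61, and -0.10 without the arrays set apart. Without E2 replicate 2 it was -0.95 and was called (limma adjusted p = 0.0188). In the other brain groups Patj ranged from 7.62 to 8.77.

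The kinase gene aPKC was not called in any comparison with WT, with differences of -0.21 to 0.81. Its highest levels were in brains with the E2 allele: 11.22, 10.11 and 10.46 in E2 brains at 29 °C, 10.70, 10.76 and 10.60 in E2 brains at 17 °C and 10.56, 10.38 and 10.19 in ts1/E2 brains, against 9.95, 9.96 and 9.72 in WT at IRB. All 9 of these arrays lay above the 3 IRB arrays of WT, but the WT arrays from EMBL read 9.40, 10.62 and 9.61 and so reached into their range. The differences were 0.72 ± 0.31 (limma adjusted p = 0.105), 0.81 ± 0.31 (adjusted p = 0.136) and 0.50 ± 0.31 (adjusted p = 0.393). That of E2 brains at 17 °C was called with the IRB arrays fitted alone (adjusted p = 0.043). That of E2 brains at 29 °C was 0.41 without the arrays set apart (adjusted p = 0.417) and 0.96, and called, without E2 replicate 2 (adjusted p = 0.0272).

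In tumours aPKC stood close to WT. It read 9.60, 9.82 and 9.58 at round 1, 10.01, 9.87 and 9.77 at round 5 and 10.11, 10.35 and 10.27 at round 10. The differences from WT were -0.21, 0.01 and 0.37, each ± 0.31, and round 10 alone did not overlap WT at IRB. Round 10 stood above round 1 by 0.58 ± 0.31 without overlap (limma adjusted p = 0.364). In ts1 brains aPKC read 10.35, 9.77 and 10.18 at 29 °C from IRB, 9.32, 9.63 and 10.42 at 29 °C from EMBL and 9.44, 10.45 and 9.87 at 17 °C, all overlapping WT at their site.

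The adaptor gene par-6 rose slightly in tumours of rounds 1 and 10. It read 11.53, 11.84 and 11.79 at round 1, 11.57, 11.59 and 11.40 at round 5 and 11.57, 11.82 and 11.54 at round 10, against 11.17, 11.14 and 11.18 in WT at IRB. All 9 tumour arrays lay above all 6 WT arrays, of which the highest read 11.38. The rise was 0.56 ± 0.18 at round 1 (limma adjusted p = 0.0209) and 0.48 ± 0.18 at round 10 (adjusted p = 0.0478), and the difference of 0.36 ± 0.18 at round 5 was not called (adjusted p = 0.145) except without the 5 arrays set apart, where the pooled error was smaller (adjusted p = 0.0165). Over ts1 brains at 29 °C the difference of round-1 tumours was called with the IRB arrays fitted alone (0.41, adjusted p = 0.0386) and after quantile normalization (0.46, adjusted p = 0.027). The round-10 call was lost with a replicate block (adjusted p = 0.056). It was also lost when any 1 of the round-10 arrays or any 1 of the WT arrays at IRB was left out. The adjusted p then ran from 0.0636 to 0.18, the highest without round-10 replicate 2. The round-1 call was lost without round-1 replicate 2 (adjusted p = 0.0762) or 3 (adjusted p = 0.0673) and without WT replicate 1 (adjusted p = 0.0509) or 2 (adjusted p = 0.0564).

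In brains par-6 was not called. It read 11.69, 11.57 and 10.91 in ts1 brains at 29 °C from EMBL and 11.41, 11.41 and 11.10 from IRB, and 11.48, 11.09 and 11.43 in ts1 brains at 17 °C. E2 brains read 10.74, 11.10 and 11.13 at 29 °C and 11.40, 11.12 and 11.10 at 17 °C, and ts1/E2 brains 11.18, 11.09 and 11.16. The EMBL difference of ts1 brains at 29 °C, 0.23 ± 0.18 (limma adjusted p = 0.579), was 0.47 and called without the arrays set apart (adjusted p = 0.0155). The lowest arrays of ts1 brains at EMBL and of E2 brains at 29 °C were those with weak 5′ signal.

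On the 3 arrays with weak 5′ signal aPKC, Patj and par-6 each departed from their group mates in the same direction, and crb and sdt did not on all 3. On all 3 aPKC was the highest of its group, by 0.93, 0.79 and 0.94 over the mean of the other 2 arrays in E2 brains at 29 °C, ts1 brains at 17 °C and ts1 brains at 29 °C from EMBL. Patj was the lowest on all 3, at -1.51, -0.12 and -0.60 from that mean in the same order, and par-6 was the lowest on all 3, at -0.37, -0.36 and -0.72. Of all tested genes 14.1% were the highest of their group on all 3 and 21.9% the lowest, so such places were common. sdt was the lowest on 2 and crb the highest on 2, by 1.57 in E2 brains at 29 °C and 0.37 in ts1 brains at 29 °C. The part of RNA quality in the values of these arrays was not tested. The 9 tumour arrays had no such signal, with a median 5′ minus 3′ value of -1.47, against -1.85 in WT. The 5 arrays set apart hold no tumour and no WT array.

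**Figure D4:**
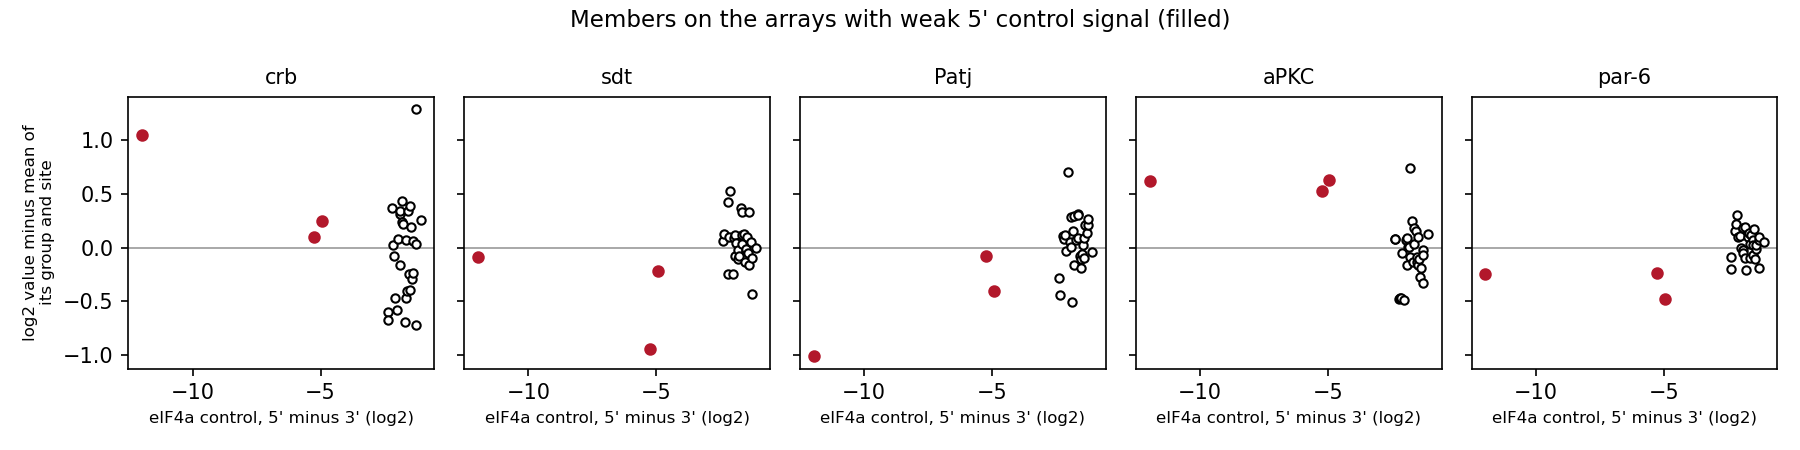
Log2 value minus the mean of its group and site (y axis) for each of the 33 arrays, against the 5′ minus 3′ signal of the eIF4a control (log2, x axis). Filled points are the 3 arrays with weak 5′ signal, on which aPKC lies above its group and Patj and par-6 lie below theirs.

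Over the 11 means of group and site, the profiles of the 5 genes were not alike. The correlation of crb was 0.668 with the main probe set of sdt, 0.666 with par-6, -0.02 with aPKC and -0.53 with Patj. Between aPKC and par-6 it was -0.52. The second sdt probe set was not part of these correlations. These are descriptions over 11 points that include WT at both sites, centred to be equal. Among 6536 other tested genes with a span of at least 1, the 3 most like crb were BobA (Pearson r 0.979), topi (0.977) and CG14968 (0.976). Those most like sdt were BNIP3 (0.961), Rtnl1 (0.949) and NFAT (0.945), and those most like par-6 were Alg7 (0.965), Irbp18 (0.955) and Leash (0.952). For Patj they were Madm (0.948), Dpck (0.931) and Fer2 (0.93), and for aPKC GstE4 (0.909), ng4 (0.904) and form3 (0.89).

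Proteins that work with the apical complexes were examined as a list of 10 genes, 8 of which had a probe set and were tested. The list also holds Gli, a septate junction gene, which was not called against WT in any group. In tumours 2, 3 and 4 of the 8 were called higher at rounds 1, 5 and 10, and 1 was called lower at round 10, where 15.2%, 16.2% and 16% of all tested genes were called higher and 16.7% lower at round 10. The list's median difference from WT was 0.63, 0.76 and 0.91, against -0.01, 0.09 and 0.09 over all tested genes. The gene kst, which encodes the apical spectrin that binds Crumbs, rose by 1.82 ± 0.33 (limma adjusted p = 8.67e-05), 1.69 ± 0.33 (adjusted p = 0.000192) and 1.82 ± 0.33 (adjusted p = 8.49e-05). Its mean was 9.76, 9.62 and 9.75 in the tumours of rounds 1, 5 and 10, against 7.93 in WT.

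The Hippo pathway gene ex, whose product binds Crumbs, averaged 10.06, 10.05 and 10.58 at the 3 rounds, against 8.48 in WT. It rose by 1.58 ± 0.33 (limma adjusted p = 0.000565), 1.57 ± 0.33 (adjusted p = 0.000584) and 2.10 ± 0.33 (adjusted p = 1.85e-05). It also rose in ts1 brains at 29 °C, by 1.20 ± 0.33 at IRB (adjusted p = 0.0217) and 1.17 ± 0.33 at EMBL (adjusted p = 0.0261). There it was the 1 of the 8 genes called, where 10.3% (IRB) and 9.36% (EMBL) of all tested genes were called. In the mean over both sites ex rose by 1.19 ± 0.24 (adjusted p = 0.00117). In E2 brains at 29 °C and 17 °C and in ts1/E2 brains 0 of the 8 were called against WT. Of all tested genes 10.9%, 5.15% and 7.22% were called there, so 0 of 8 is not read as a difference between alleles.

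The Par complex scaffold gene baz rose by 1.36 ± 0.50 at round 5 (limma adjusted p = 0.038) and 1.37 ± 0.50 at round 10 (adjusted p = 0.0367), with means of 8.39 and 8.41 in these tumours, against 7.03 in WT. Mer, another upstream Hippo gene, rose at round 10 by 1.0 ± 0.38 (adjusted p = 0.0458), and veli, which encodes a small scaffold bound by Stardust, fell by 0.70 ± 0.26 (adjusted p = 0.0384). Against ts1 brains at 29 °C, round-1 tumours were higher in kst by 1.55 (adjusted p = 0.000692) and in Mer by 1.34 (adjusted p = 0.00795), and the other 6 genes were not called. Between ts1/E2 and ts1 brains veli was higher in ts1/E2 brains by 0.93 (adjusted p = 0.0237).

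Of 8 adherens junction genes 7 were tested. The E-cadherin gene shg was lower in brains with the E2 allele, with means of 3.47 in E2 brains at 29 °C, 3.88 in E2 brains at 17 °C and 3.63 in ts1/E2 brains, against 6.76 in WT. The differences were -3.29 ± 0.83 (limma adjusted p = 0.0129), -2.88 ± 0.83 (adjusted p = 0.0426) and -3.13 ± 0.83 (adjusted p = 0.0188), and these means near background make the sizes inexact. In ts1 brains shg was not called against WT, with differences of -2.10 at 29 °C from IRB, -0.45 from EMBL and -1.02 at 17 °C. At 29 °C neither E2 nor ts1/E2 brains were called against ts1 brains in shg. The fall was thus not shown to be particular to the E2 allele. In tumours shg was not called, with means of 5.30, 6.29 and 6.82 at rounds 1, 5 and 10. There 2 genes of catenins, which bind or link to E-cadherin, fell at each round: p120ctn differed by -1.07, -0.71 and -0.84 (adjusted p = 2.14e-05, 0.00183 and 0.000347) and alpha-Cat by -0.56, -0.69 and -0.64 (adjusted p = 0.0167, 0.0036 and 0.00709). p120ctn was also lower in ts1 brains at 29 °C from EMBL than in WT (-0.58, adjusted p = 0.0323) and in round-1 tumours than in ts1 brains at 29 °C (-1.17, adjusted p = 1e-05). Vinc, the vinculin gene, was lower in ts1 brains at 29 °C from IRB (-1.22, adjusted p = 0.0424) and in the mean over both sites (-0.82, adjusted p = 0.0485), and E2 brains exceeded these ts1 brains in it by 1.49 (adjusted p = 0.0174). The adherens list thus had 0 higher and 2 lower calls of 7 at each round, where 19.3%, 17.2% and 16.7% of all genes were called lower.

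Of 12 lateral and septate junction genes 11 were tested. The basolateral gene scrib rose in tumours by 1.15 ± 0.34 (limma adjusted p = 0.00985), 1.67 ± 0.34 (adjusted p = 0.00036) and 1.76 ± 0.34 (adjusted p = 0.000206), with means of 9.54, 10.06 and 10.15, against 8.39 in WT. Its partner gene l(2)gl rose at round 10 by 1.03 ± 0.32 (adjusted p = 0.0136). Lac, a septate junction adhesion gene, fell at all 3 rounds, with differences of -1.01, -1.56 and -1.36 (adjusted p = 0.000285, 7.71e-07 and 6.09e-06). The basolateral kinase gene par-1 fell at rounds 1 and 10, with differences of -0.41 (adjusted p = 0.045) and -0.76 (adjusted p = 0.000391). The septate junction gene sinu rose at round 1 by 0.63 (adjusted p = 0.044) and at round 10 by 0.71 (adjusted p = 0.0226), and Nrx-IV, another, fell at round 5 by 0.57 (adjusted p = 0.0259) and in ts1 brains at 29 °C from EMBL by 0.80 (adjusted p = 0.00964). The basolateral gene dlg1 was lower in ts1 brains at 17 °C than in WT (-1.29, adjusted p = 0.00615). Round-1 tumours were lower than ts1 brains at 29 °C in Lac, cora, dlg1 and par-1, with differences of -1.23, -0.70, -0.67 and -0.49 (adjusted p = 3.93e-05, 0.043, 0.0429 and 0.0179). In tumours against WT, 2, 1 and 3 of the 11 were called higher and 2 at each round lower, near the shares of all genes given above, and the list's median difference was 0.04, -0.00 and 0.08. Over the 3 lists together 28 of 78 tests were called in tumours (35.9%, against 33.6% over all tested genes) and 9 of 156 in brains (5.77%, against 7.39%). The calls pooled over the map thus lie near the shares of all genes, which does not hold for each list. The apical partners had 2, 3 and 4 of 8 higher at rounds 1, 5 and 10, against 15.2%, 16.2% and 16% of all genes. The adherens list had 0 of 7 higher at each round. The lists were chosen with earlier results known, so this was not tested.

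**Figure D5:**
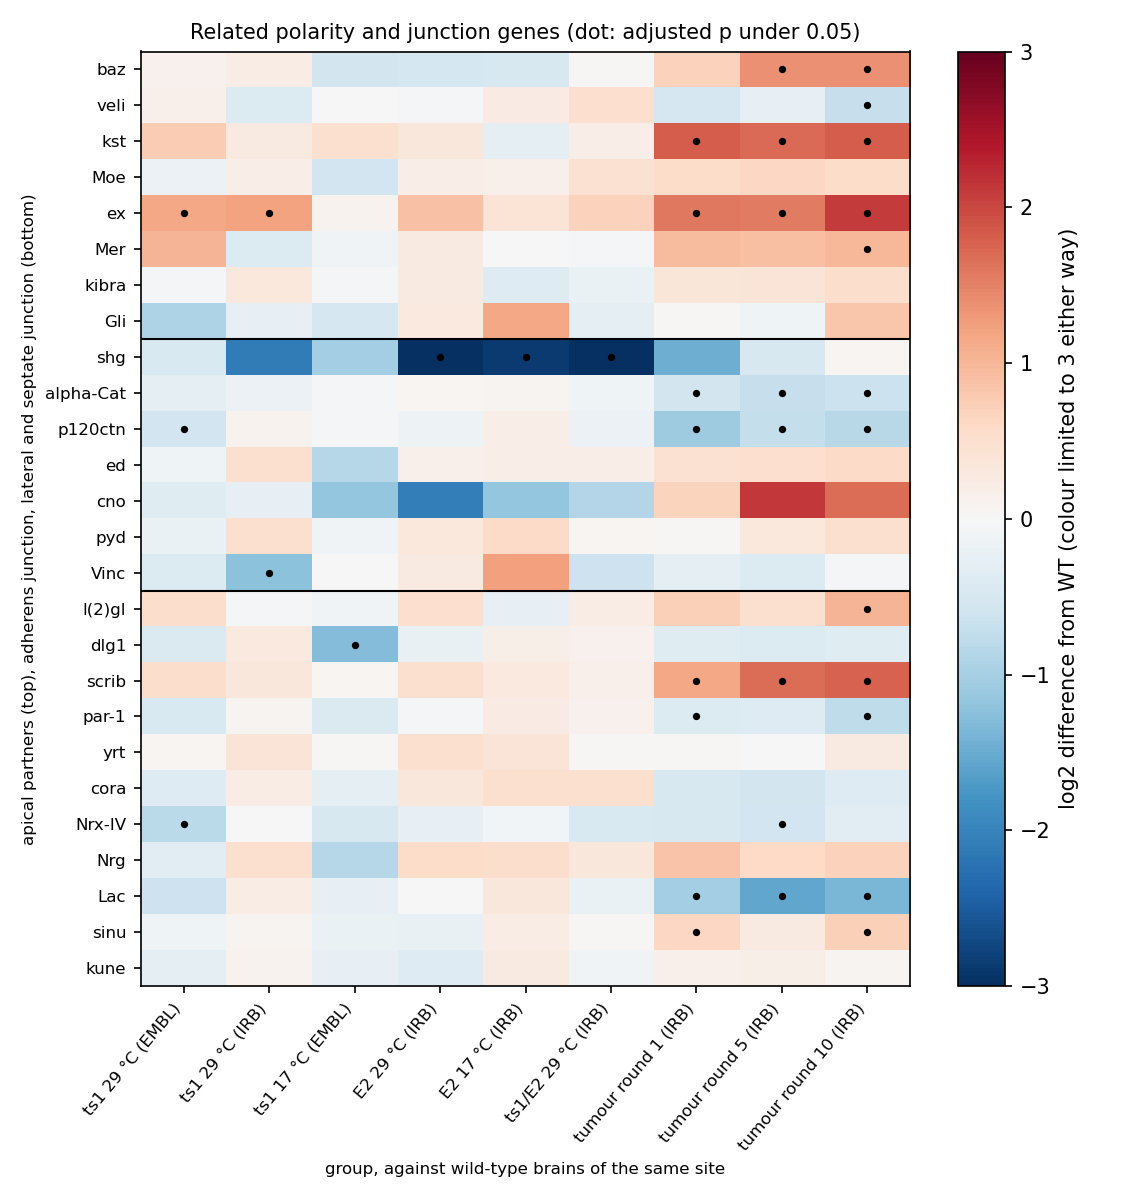
Log2 difference from wild-type brains of the same site for apical partners (top block), adherens junction genes (middle) and lateral and septate junction genes (bottom), by group (columns); colour is limited to 3 in either direction and dots mark an adjusted p below 0.05. The genes kst, ex and scrib are higher and p120ctn, alpha-Cat and Lac lower in all 3 tumour rounds, and shg is lowest in brains with the E2 allele.

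Markers of the cell types that brain or tumour tissue could hold were read beside crb. The marker counts stand against the shares of all tested genes called in the same comparison. In tumours 15.2%, 16.2% and 16% were called higher than WT at rounds 1, 5 and 10, and 19.3%, 17.2% and 16.7% lower. A count near its share is not read as a result about the markers. The mean level of 8 optic lobe neuroepithelium genes, the brain tissue that carries Crumbs, ran from 6.36 to 8.17 over the 9 tumour arrays, against 9.0 to 9.26 over the 6 WT arrays. Of these 8 genes 1 was higher and 4 lower at round 10: l(1)sc rose by 2.17 (limma adjusted p = 0.0236), while Optix (-6.44, adjusted p = 4.36e-11), eya (-6.16, adjusted p = 2.76e-11), dac (-5.39, adjusted p = 2.57e-08) and so (-4.0, adjusted p = 1.63e-05) fell. At round 1, 1 was higher (eya, by 1.79, adjusted p = 0.00182) and 3 lower. In E2 brains at 29 °C the mean level ran from 7.81 to 8.83 and in ts1/E2 brains from 8.29 to 8.45, against the same WT range. Over the ts1 brains at 29 °C it ran from 7.84 to 8.99 at IRB and from 8.31 to 8.76 at EMBL. In E2 brains at 29 °C tll (-2.08, adjusted p = 0.0113) and ogre (-1.70, adjusted p = 0.0361) were lower, and in ts1/E2 brains tll (-2.33, adjusted p = 0.00464). Among ts1 brains at 29 °C tll (-1.84, adjusted p = 0.0225), dac (-1.74, adjusted p = 0.0469) and Optix (-1.62, adjusted p = 0.024) were lower at IRB, and dac (-2.67, adjusted p = 0.00252) and vvl (-1.40, adjusted p = 0.0382) at EMBL. Thus 2, 1, 3 and 2 of the 8 were lower in these 4 groups and 0 higher. In the same order 6.38%, 3.68%, 6.79% and 4.78% of all tested genes were called lower. In the 17 °C brains 0 were called (1.39% of all tested genes in ts1 and 5.15% in E2).

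Other epithelia also express crb. The mean level of 6 trachea markers was 4.72 to 5.42 in tumours, against 4.25 to 5.86 in WT, with btl at or below 4 on all arrays, and of 4 tested 1, pio, rose at round 1, by 2.84 (limma adjusted p = 0.0299). The mean of 7 imaginal disc markers was 5.11 to 6.60 in tumours, against 6.34 to 7.04 in WT. That of 7 eye disc and photoreceptor markers was 3.90 to 4.65 in tumours, against 5.87 to 6.38 in WT, but the photoreceptor gene chp was higher in some of the groups in which crb was. It rose by 1.86 (limma adjusted p = 0.0474), 2.13 (adjusted p = 0.0229) and 1.98 (adjusted p = 0.0358) at rounds 1, 5 and 10 and by 2.57 in E2 brains at 29 °C (adjusted p = 0.0244), and it was higher by 3.58 in E2 brains at 29 °C than at 17 °C (adjusted p = 0.00199). Of the 5 tested 4, 3 and 4 were lower at the 3 rounds, with ato, ey and gl among them each time. Over all tested genes 19.3%, 17.2% and 16.7% were called lower. Glial markers averaged 5.19 to 5.84 in tumours, against 9.10 to 9.54 in WT, and neuronal markers 6.38 to 7.73, against 8.98 to 9.51, while neuroblast markers ran from 9.30 to 10.31, against 9.28 to 9.70. Lower at round 10 were 5 of 7 glial and 7 of 7 neuronal markers. Of 8 neuroblast markers 0, 1 and 2 were higher and 2, 1 and 0 lower at rounds 1, 5 and 10. Over all tested genes 15.2%, 16.2% and 16% were called higher there. Lower in E2 brains at 29 °C and in ts1/E2 brains were 2 and 3 of them, with 0 higher (6.38% and 3.68% of all genes lower). In ts1 brains at 29 °C 1 was higher at IRB (3.55% of all genes) and 0 at EMBL (4.59%).

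Markers of blood cells, fat body and muscle were read as well. Among 7 hemocyte (blood cell) markers NimC1 was called higher at rounds 1, 5 and 10. Over all tested genes 15.2%, 16.2% and 16% were called higher. The mean level of these markers was 4.89 to 6.26 in tumours, against 4.33 to 5.36 in WT. The hemocyte surface gene NimC1 averaged 6.95, 6.28 and 7.55 at the 3 rounds, against 2.71 in WT at IRB (limma adjusted p = 0.000396, 0.00202 and 8.45e-05). Hml, which encodes hemolectin, averaged 6.89, 5.80 and 5.97, against 2.74. Hml passed the low-value filter only with the tumour arrays, so no test is given for it and the higher markers are named rather than counted. Among brains NimC1 exceeded 4 on 2 arrays of ts1 brains at 17 °C and on 1 of E2 brains at 17 °C. WT lay near background in both genes, so the sizes are inexact. Besides NimC1, and with Hml left aside, eater at round 10 and crq at rounds 1 and 10 were the markers called higher, and Pxn was the lower one each time. In the 29 °C brains 1 hemocyte marker was called against WT, crq in E2 brains (0.90, adjusted p = 0.0296), where 4.53% of all genes were called higher.

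The mean level of 3 fat body markers, the larval storage and fat body proteins, was 3.17 to 7.51 in tumours, against 8.30 to 11.46 in WT. Of the 3 genes 3, 2 and 3 were lower at rounds 1, 5 and 10, where 19.3%, 17.2% and 16.7% of all tested genes were called lower. In brains at 29 °C 3 were lower in ts1 at IRB, 1 in ts1 at EMBL, 2 in E2 and 1 in ts1/E2. There 6.79%, 4.78%, 6.38% and 3.68% of all tested genes were called lower. Between E2 brains at 29 °C and at 17 °C, where crb was higher at 29 °C, all 3 were lower at 29 °C (3.99% of all genes). Lsp2 differed by -6.39 (adjusted p = 0.00988), Fbp1 by -5.31 (adjusted p = 0.00524) and Fbp2 by -4.46 (adjusted p = 0.0297). Of 5 muscle markers Tm2 was higher at round 1 (1.78, adjusted p = 0.0462), and bt was lower at rounds 5 and 10 (-3.09 and -2.84, adjusted p = 0.0281 and 0.0458) and in E2 brains at 29 °C than at 17 °C (-4.06, adjusted p = 0.0198). The part of cell composition and of other tissue in the differences of crb, sdt and par-6 was not tested.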

How the data were processed

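Total RNA of 33 samples was hybridised to Affymetrix Drosophila arrays, 1 per sample. The authors deposited 1 log2 value per probe set and array, made with GCRMA per the submitters' processing notes, whose version and settings are not given in the sources used here. Arrays have no read depth, so the 3 arrays per group and site limit the precision. Of 18952 probe sets, 13647 were annotated to 1 gene, 402 to several and 4903 were unlisted (183 of them controls). Each gene was represented by its single-gene probe set of the highest mean.

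All arrays entered 1 limma 3.58.1 fit (R 4.3.3, with tables made in Python 3.11.15 with pandas 2.3.3), with 11 means, 1 for each group at each site, and empirical Bayes moderation. Contrasts were formed within a site, with Benjamini-Hochberg adjustment across the 8265 genes that exceeded 4 (log2) on 3 or more arrays. A site term was an alternative, since the sites had been centred on WT and such a term would absorb part of the site difference of ts1 brains. In ts1 brains at 29 °C that difference had a median of 0.319. The fit was also run on simulated normal values with changes in E2 brains at 29 °C alone. The simulation held no arrays with weak 5′ signal and no site centring, so it does not assess their effect.

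The genes named are the 5 genes, l(3)mbt, the called genes of the related lists (up to 4 per list and comparison, by size; sinu at round 10 is beyond that limit, and of the marker lists only part of the called genes are named) and, per gene, the 3 of highest correlation over the 11 means. The members and lists were chosen with earlier results of these data known. The 5 arrays set apart are E2 29 °C replicate 1, E2 17 °C replicate 2, ts1 17 °C replicate 2 and ts1 29 °C replicates 3 and 6. Replicate numbers were checked for pairing: in 0 of 37 pairs of groups that share 3 numbers was every correlation between same-numbered arrays over 0.1, and no pairing was assumed. Sequences and coordinates were not analysed here.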

Additional observations from a re-analysis of the deposited data

How the results depend on the processing

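Of 1656 differences of the 5 genes recomputed under other settings, 1607 kept their side of the threshold, 27 lost a call, 22 gained one (3 of them on the second sdt probe set, which passed the low-value filter through tumours alone), and 0 called differences changed sign. Among the 1607, 91 had the other sign but were called in neither fit, and the largest of these was 0.75 as reported. The 9 calls against WT in 45 tests became 15 without the 5 arrays set apart and ran from 5 to 11 when each array was left out in turn, with 5 without WT replicate 1 and 5 without WT replicate 2. Between 29 °C and 17 °C the 1 call of 10 became 2 with the arrays of 1 site alone and 0 without the 5 arrays, and was 1 in each fit that left out an array. Between 29 °C genotypes 0 of 15 became 1 without ts1 29 °C replicate 5 (range 0 to 1). For tumours against ts1 brains and between rounds, 1 of 20 became 2 with 1 site alone and 3 after quantile normalization (range 1 to 1). For differences of differences the count was 0 of 10 in all fits run (range 0 to 0). With the replicate number as a random block (consensus correlation -0.0549) the calls against WT were 7. The numbers were not shown to pair the arrays, so a call lost under the block is not a weaker effect. Counts over all tested genes moved by more than 1.5 times in places, from 461 to 1794 for ts1 brains at 29 °C (EMBL), 400 to 1611 (IRB), 378 to 2958 for E2 brains at 29 °C, 322 to 1882 for ts1/E2 brains and 2229 to 4329 for round-1 tumours. For crb the differences from WT ran from 3.65 to 4.21 at round 1, 3.89 to 4.25 at round 5, 4.38 to 4.73 at round 10 and 2.15 to 2.97 in E2 brains at 29 °C, called in all alternative fits run. With 3 arrays per group and site, the SE of 0.30 for Patj and 0.31 for aPKC limits what could be detected, and 1 array can decide a call.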

Other observations

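Genes of asymmetric neuroblast division were examined as a further list, since aPKC and par-6 act in it. Of 11 genes 9 were tested. In tumours 0, 1 and 1 were called higher and 2, 2 and 1 lower at rounds 1, 5 and 10, where 15.2%, 16.2% and 16% of all tested genes were called higher and 19.3%, 17.2% and 16.7% lower. The neuronal fate gene pros fell in tumours, with differences of -1.49 ± 0.22, -1.58 ± 0.22 and -1.56 ± 0.22 at rounds 1, 5 and 10 (limma adjusted p = 9.86e-06, 3.44e-06 and 4.45e-06), and in ts1 brains from EMBL, with differences of -1.20 ± 0.22 at 29 °C (adjusted p = 0.000838) and -0.89 ± 0.22 at 17 °C (adjusted p = 0.0424). In the mean over both sites of ts1 brains at 29 °C it differed by -0.82 ± 0.16 (adjusted p = 0.000901), and between round-1 tumours and ts1 brains at 29 °C by -1.05 ± 0.22 (adjusted p = 0.00078). Its carrier gene mira fell too, with differences of -0.98 ± 0.32 at round 1 (adjusted p = 0.0208), -0.96 ± 0.32 at round 5 (adjusted p = 0.0228) and -1.21 ± 0.32 in ts1/E2 brains (adjusted p = 0.0197). The spindle orientation gene mud rose at round 5 by 2.51 ± 0.66 (adjusted p = 0.00419) and at round 10 by 2.31 ± 0.66 (adjusted p = 0.00824), and rounds 5 and 10 exceeded round 1 by 2.63 ± 0.66 (adjusted p = 0.0164) and 2.43 ± 0.66 (adjusted p = 0.0235). The G protein gene Galphai was lower in ts1/E2 brains than in WT (-0.61 ± 0.15, adjusted p = 0.00959) and than in ts1 brains at 29 °C (-0.50 ± 0.15, adjusted p = 0.0353), and the fate gene numb was lower there than in ts1 brains (-0.73 ± 0.20, adjusted p = 0.0252). In E2 brains 0 of the 9 were called against WT at either temperature (10.9% of all tested genes at 29 °C and 5.15% at 17 °C). The list's median difference from WT was -0.28, 0.07 and 0.05 at the 3 tumour rounds, against -0.01, 0.09 and 0.09 over all tested genes.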
